A study of Homo sapiens with 6 samples.

Results

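GDF15 and 9 related genes of the transforming growth factor beta (TGF-beta) superfamily were followed in 22RV1 cells treated with bruceantin (BCT), a plant quassinoid known to inhibit protein synthesis. The genes were chosen by symbol, as GDF15, INHBA, INHBB, INHBE, BMP2, BMP4, BMP7, TGFB1, TGFB2 and FST, and all 10 had a row among the 26255 genes of every sample. The list was drawn up because GDF15 was much higher in the BCT samples, so the difference between BCT and DMSO in these 10 genes is given as a description, with no p-value. Of the 10 genes, 9 encode secreted ligands or ligand subunits, whereas FST encodes follistatin, a secreted protein that binds activins.

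RNA was sequenced from 6 samples kept for 24 h in full medium with serum, 3 of them with 10 nM BCT and 3 with DMSO, the vehicle. 22RV1 is an established human cell line of castration-resistant prostate cancer (CRPC), so all samples come from a single line. The labels number the samples of each group from 1 to 3 but do not say whether they are separate cultures, and any p-value then measures only the spread between these samples. The measurement is FPKM, a fragment count scaled by transcript length and by the size of the library, which lets levels be compared between genes. It is a measure of mRNA, and secreted protein was not measured in these files.

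Proteins of the TGF-beta superfamily are made as precursors, cut by convertases such as furin, and released as dimers. Ligands of the TGF-beta and activin branches bind type II and type I receptor kinases that phosphorylate SMAD2 and SMAD3, and the bone morphogenetic proteins (BMPs) act through SMAD1, SMAD5 and SMAD9. GDF15 is a distant member of the family, a stress-induced cytokine whose known receptor, GFRAL with RET as its partner, is found mainly in the hindbrain. In prostate tissue and prostate cancer, GDF15 is also known as prostate-derived factor.

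The cells matched their label. Of 8 prostate and epithelial markers, 7 were at 1 FPKM or more in every sample, among them KLK2, FOLH1, HOXB13, KRT8, KRT18 and EPCAM, and KLK3 ranged from 0.863 to 9.76 FPKM. Of 10 markers of fibroblasts, endothelium and blood cells, 6 stayed under 0.1 FPKM in all samples, among them PECAM1, CDH5, PTPRC and CD3E. Their summed level was 3.79 to 4.85 FPKM with DMSO and 11.3 to 14.8 FPKM with BCT, nearly all of it from COL1A1 (1.23 to 1.55 with DMSO and 5.04 to 6.31 with BCT) and CD68 (2.05 to 3.16 with DMSO and 4.95 to 8.16 with BCT). All samples are of a single cell line, and the other fibroblast markers COL1A2, COL3A1 and DCN did not exceed 0.091, 0.192 and 0.177 FPKM. Why COL1A1 and CD68 were higher with BCT was not tested, nor was the part of these markers in the results. In bulk RNA a higher level in all cells cannot be told apart from one in a few cells. The number of reads behind a value is unknown, since FPKM holds no counts. Depth was estimated from the most frequent ratio to DMSO replicate 1 among genes at 0.02 to 0.15 FPKM in both samples. This put the depth of the samples at 0.877 to 1.13 relative to that replicate. Among genes tested, BCT replicate 1 was nearer to the DMSO samples (mean correlation across genes 0.893) than BCT replicates 2 and 3 were (0.853 and 0.854).

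To show the DNA in front of these genes, the 250 bases before the RefSeq start site were read for GDF15, for TGFB2 and INHBA, the members with the next largest difference, and for TGFB1, a member that was not called. Windows were found for 7 of the 10 members. The sequences are on GRCh38.p14, 5′ to 3′ on the strand of the gene, and capitals mark matches to the motifs named below. The window of GDF15 is chr19:18385908-18386157 on the plus strand, that of TGFB2 chr1:218345086-218345335 on the plus strand, that of INHBA chr7:41703091-41703340 on the minus strand and that of TGFB1 chr19:41353923-41354172 on the minus strand.
GDF15: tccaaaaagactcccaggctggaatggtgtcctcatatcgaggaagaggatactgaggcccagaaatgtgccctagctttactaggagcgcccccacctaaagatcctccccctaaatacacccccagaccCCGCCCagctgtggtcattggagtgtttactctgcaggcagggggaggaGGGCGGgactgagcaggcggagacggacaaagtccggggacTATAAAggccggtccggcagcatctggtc
TGFB2: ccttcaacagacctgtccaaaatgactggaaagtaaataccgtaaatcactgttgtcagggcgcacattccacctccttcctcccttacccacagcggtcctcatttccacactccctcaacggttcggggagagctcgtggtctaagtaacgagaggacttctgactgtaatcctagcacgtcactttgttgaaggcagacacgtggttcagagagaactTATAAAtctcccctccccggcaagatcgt
INHBA: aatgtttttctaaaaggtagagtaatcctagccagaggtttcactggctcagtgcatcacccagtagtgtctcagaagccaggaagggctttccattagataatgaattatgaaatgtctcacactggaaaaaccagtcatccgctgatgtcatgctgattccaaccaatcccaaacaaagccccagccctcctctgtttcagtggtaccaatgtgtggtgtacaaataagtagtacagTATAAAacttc
TGFB1: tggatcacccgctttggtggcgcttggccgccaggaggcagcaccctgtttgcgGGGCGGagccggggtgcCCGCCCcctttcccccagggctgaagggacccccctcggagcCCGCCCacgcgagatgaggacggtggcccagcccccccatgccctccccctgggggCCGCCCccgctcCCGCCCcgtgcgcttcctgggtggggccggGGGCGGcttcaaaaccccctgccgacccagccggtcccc

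Motifs were searched on both strands. The TATA box letters TATAAA, which are found in 10.7% of the 35116 windows of the RefSeq table, stood at bases -29 to -24 from the start of GDF15 and at the same place in TGFB2. In INHBA they lay at bases -11 to -6, and the windows of INHBB, BMP4, TGFB1 and FST held none. The GC box GGGCGG, found in 42.6% of all windows, was matched 2 times in GDF15, 6 times in TGFB1, 10 times in INHBB (some of these overlap each other) and 2 times in FST. BMP4, with 3 listed starts, had 2, 0 and 3 matches. The AP-1 letters TGANTCA (6.57% of all windows) were matched once, in FST, at bases -160 to -154 from its start. None of the 9 windows held TGATGNAA, the core of sites bound by ATF4 with C/EBP proteins (3.14% of all windows), the cAMP response element TGACGTCA (1.65%) or the SMAD palindrome GTCTAGAC (0.182%). A match is a run of letters and no measure of binding, and in these windows no match of one motif overlapped that of another.

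GDF15 was the most abundant of the 10 genes in both groups and had the largest difference between them. Its FPKM was 31.2, 32.0 and 31.5 in the DMSO samples and 843.1, 832.2 and 722.2 in the BCT samples. All BCT samples lay far above all DMSO samples, and the DMSO samples were nearly equal. On average the level was 31.6 ± 0.418 FPKM with DMSO and 799.2 ± 66.9 FPKM with BCT (SD, n = 3 each), which is 25.3 times as high. On log2(FPKM + 0.1) the difference was 4.65, with a standard error of 0.066 and a 95% interval from 4.5 to 4.80. This was the 10th largest rise among the 12729 genes tested, whose mean over the 6 samples reached 1 FPKM. The difference stayed between 4.61 and 5.42 over the 19 alternatives described in the closing section.

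By FPKM, GDF15 ranked between 3054 and 3150 among all genes in the DMSO samples and between 89 and 94 in the BCT samples. It made up 55.3% to 57.6% of the summed FPKM of the 10 members with DMSO and 92.9% to 94.1% with BCT. The gene lies on chromosome 19 of hg19, from 18496968 to 18499986 on the plus strand, and the canonical transcript of GENCODE has 2 exons there. The microRNA gene MIR3189 (18497372 to 18497444) sits in intron 1 of GDF15, and it was listed at 0 in all 6 samples. The library kit was not one for small RNA, so whether the mature microRNA was present was not measured. On the same build the files give INHBA the span chr7:41728601-41818976 (minus strand), whereas GENCODE places the gene itself at 41706766 to 41745432. The files place INHBB at chr2:121103719-121109383 (plus), INHBE at chr12:57849096-57851791 (plus), BMP2 at chr20:6748745-6760910 (plus) and BMP4 at chr14:54416455-54423554 (minus). They place BMP7 at chr20:55743809-55841707 (minus), TGFB1 at chr19:41836436-41859838 (minus) and FST at chr5:52776264-52782304 (plus). All 10 members are annotated as protein-coding genes.

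**Figure D1:**
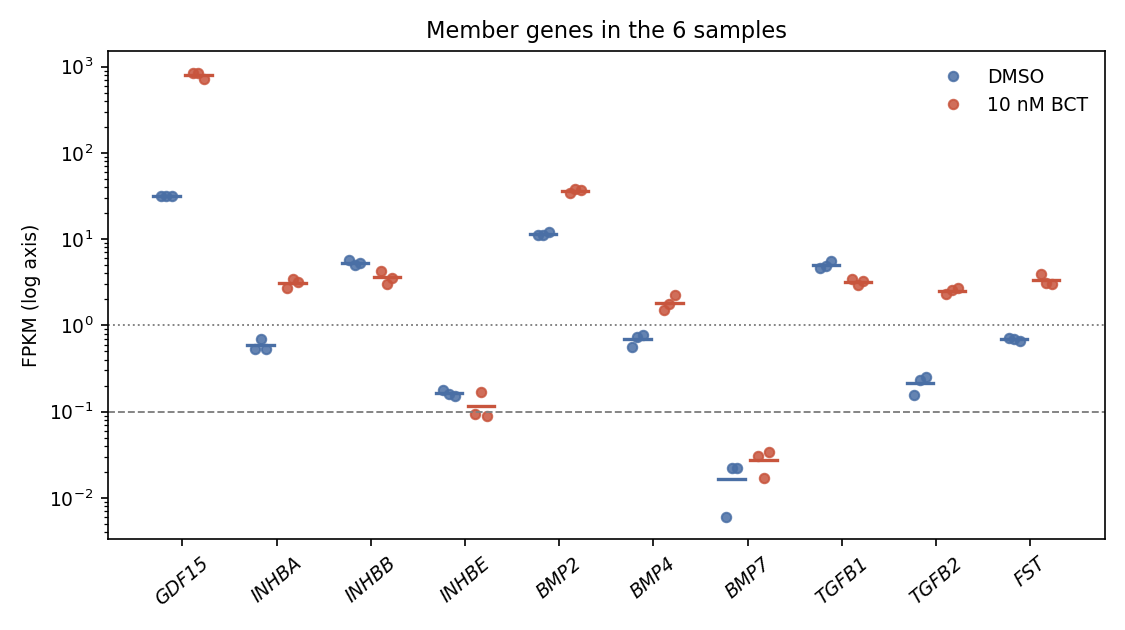
FPKM of the 10 members on a log axis, with 1 point for each sample (DMSO in blue, 10 nM BCT in red) and a bar at the mean of each group of 3. The dotted line marks 1 FPKM and the dashed line 0.1 FPKM, and GDF15 stands above all other members in both groups, at 722.2 to 843.1 FPKM with BCT.

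The inhibin and activin subunit genes differed in level and in response. INHBA encodes the beta A subunit, 2 copies of which form activin A. It was at 0.537, 0.692 and 0.527 FPKM under DMSO, against 2.70, 3.41 and 3.16 under BCT, so that the groups did not overlap and each BCT sample was above 1 FPKM. The log2 difference was 2.22 (standard error 0.16, 95% interval 1.86 to 2.58). INHBA-AS1, an antisense gene that the files place on the same locus, stayed at or under 0.053 FPKM in all samples.

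INHBB, which encodes the beta B subunit of activin B, was at 5.67, 5.05 and 5.27 FPKM under DMSO, against 4.30, 2.98 and 3.55 under BCT. All BCT samples were below all DMSO samples, by a log2 difference of -0.56 (standard error 0.13, 95% interval -0.85 to -0.27) that was not called and turned to 0.19 with samples rescaled to equal FPKM sums. INHBE, which encodes the beta E subunit, a hepatokine gene known to respond to endoplasmic reticulum stress, was at 0.177, 0.162 and 0.151 FPKM under DMSO, against 0.094, 0.167 and 0.088 under BCT. The groups overlapped. INHBE was under the filter and was not tested, and without the filter its log2 difference was -0.30, with a 95% interval from -0.69 to 0.08. The means of INHBA and INHBB were thus 0.585 and 5.33 FPKM with DMSO and 3.09 and 3.61 FPKM with BCT, and with BCT the ranges of both genes overlapped.

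Among the BMP genes, BMP2, which encodes a ligand of the SMAD1 and SMAD5 branch, was the most abundant. Its samples held 11.2, 11.2 and 12.2 FPKM under DMSO, against 34.4, 38.4 and 36.9 under BCT, with no overlap and a log2 difference of 1.66 (standard error 0.063, 95% interval 1.51 to 1.80). BMP4, a close relative of BMP2, was at 0.563, 0.727 and 0.779 FPKM under DMSO, against 1.49, 1.79 and 2.23 under BCT. These groups did not overlap either, but the level was low, and the log2 difference of 1.29 (standard error 0.20, 95% interval 0.84 to 1.74) fell to 0.74 with a pseudocount of 1, where BMP4 was no longer called. BMP7, a BMP that acts in kidney and skeletal development, was near zero. It stayed between 0.006 and 0.034 FPKM in all 6 samples, the groups overlapped, and BMP7-AS1 was listed at 0 throughout.

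The TGF-beta isoform genes also differed. TGFB1, which encodes the most widely expressed isoform, was at 4.61, 4.83 and 5.62 FPKM under DMSO, against 3.44, 2.95 and 3.28 under BCT. The BCT samples were all lower, by a log2 difference of -0.62 (standard error 0.099, 95% interval -0.85 to -0.39) that was not called and turned to 0.13 with equal FPKM sums. TGFB2 was at 0.158, 0.233 and 0.255 FPKM under DMSO, against 2.31, 2.55 and 2.71 under BCT. No sample of one group overlapped the other, and the means stood at 0.215 ± 0.051 and 2.52 ± 0.197 FPKM (SD, n = 3 each), a ratio of 11.7. On log2(FPKM + 0.1) the difference was 3.07 (standard error 0.20, 95% interval 2.60 to 3.53). Because the DMSO level is close to the pseudocount, this value depends on it, with 1.53 at a pseudocount of 1 and 3.51 at 0.01.

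The files give TGFB2 the span from 218517538 to 219347130 on chromosome 1, shared with the rows of TGFB2-AS1, TGFB2-OT1 and LYPLAL1-AS1, whereas GENCODE places TGFB2 itself at 218518678 to 218617961. TGFB2-AS1 was at 0.133, 0.15 and 0 FPKM under DMSO, against 0.063, 0.117 and 0.059 under BCT, and LYPLAL1-AS1 did not exceed 0.244 FPKM. The library kit does not mark strand, so reads of TGFB2 and of its antisense gene cannot be told apart where both overlap. With BCT, the lowest TGFB2 sample (2.31 FPKM) was above the highest value of either antisense row. Each row is scaled by its own length, so these values do not show how shared reads were divided. The part of antisense reads in the TGFB2 values was not tested.

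FST, the activin antagonist, was at 0.705, 0.704 and 0.653 FPKM under DMSO, against 3.95, 3.10 and 3.05 under BCT. The groups did not overlap, and the log2 difference was 2.13 (standard error 0.14, 95% interval 1.81 to 2.45). Its level with BCT, 3.37 ± 0.508 FPKM, was in the same range as that of INHBA, 3.09 ± 0.358 FPKM (SD, n = 3 each), the activin subunit gene whose product it binds.

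A gene was called at an absolute log2 difference above 0.85 and an FDR below 0.05 with limma. Of the 8 members tested, 6 were called higher (GDF15, TGFB2, INHBA, FST, BMP2 and BMP4), 0 were called lower, and 2 were not called. Over all genes tested, 31.6% were called, made up of 13.9% called higher and 17.8% called lower. In each of the 8 members tested the 2 groups were apart, as they were in 85.3% of all genes tested. INHBA, BMP4, TGFB2 and FST had DMSO means under 1 FPKM and passed the filter through their BCT samples, and the list was drawn up with this comparison known, so these counts carry no weight as evidence about the family. In the order of levels with DMSO, GDF15 and BMP2 stood first and second without overlap with their neighbors, INHBB and TGFB1 overlapped, and BMP4, FST and INHBA overlapped in turn. With BCT, GDF15 and BMP2 again led, while the ranges of INHBB, FST, TGFB1 and INHBA overlapped. TGFB2 (2.31 to 2.71 FPKM) touched only INHBA, whose lowest sample was at 2.70 FPKM, and lay above BMP4 without overlap.

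**Figure D2:**
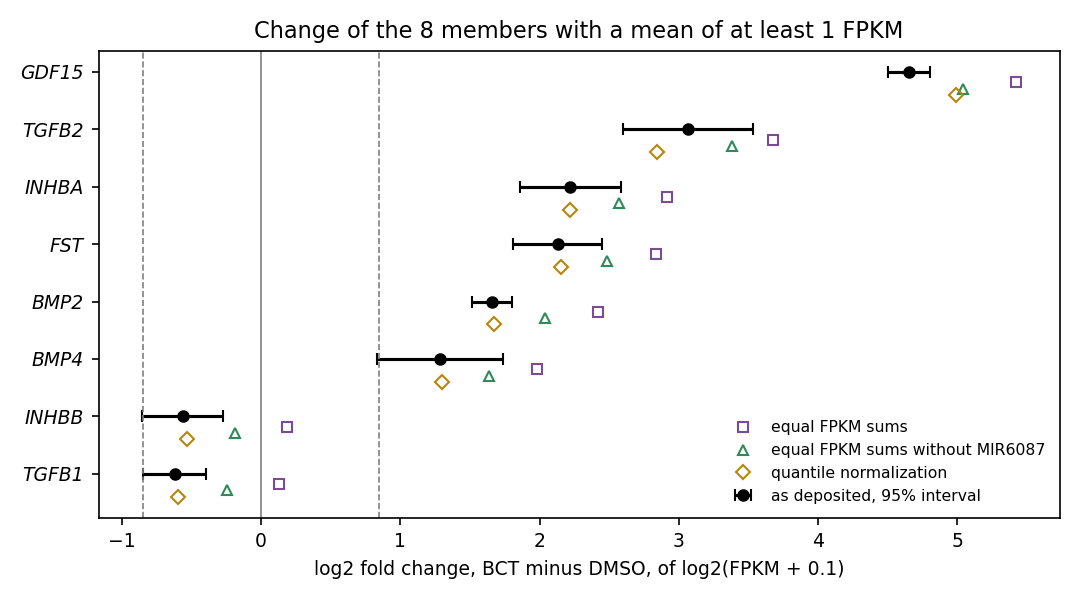
Difference between BCT and DMSO in log2(FPKM + 0.1) for the 8 members tested, with black points and 95% intervals from limma for the deposited values and open symbols for 3 other scalings. Dashed lines mark 0.85 in both directions. GDF15, TGFB2, INHBA, FST, BMP2 and BMP4 lie to the right of the line under each scaling shown, and INHBB and TGFB1 move to the right of 0 when samples are rescaled to equal FPKM sums.

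Among the 4 other scalings tried, the one to equal FPKM sums turned the direction of INHBB and TGFB1. A single small RNA gene, MIR6087, made up 43.5% to 55.3% of the FPKM sum with DMSO and 31.7% to 32.5% with BCT. Rescaling to equal sums moved the median of all genes from -0.04 to 0.72 on the log2 scale (to 0.34 with MIR6087 left out of the sums), and INHBB and TGFB1 to 0.19 and 0.13, which is still below that median. INHBB and TGFB1 stayed negative with MIR6087 left out of the sums (-0.19 and -0.24), with median-ratio size factors (-0.53 and -0.58) and with quantile normalization (-0.53 and -0.59). Rescaling to equal sums also moved the share of calls that were higher from 43.8% to 89.4%. The other 6 tested members remained called higher with this scaling, and GDF15 was at 5.42.

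The rest of the pathway was read from a list by role, written from general knowledge. Of 24 further ligand genes, 23 had a row, 3 were tested and 0 were called in either direction, while 9 stayed under 0.1 FPKM in all samples. TGFB3, the remaining TGF-beta isoform gene, was at 4.78, 5.04 and 5.19 FPKM under DMSO, against 7.53, 7.89 and 7.70 under BCT, a log2 difference of 0.61 that passed the FDR (limma, Benjamini-Hochberg adjusted p = 2.5e-05) but not the threshold of 0.85. GDF11, a ligand close to myostatin, was at 10.9 ± 0.211 FPKM with DMSO and 6.84 ± 0.046 FPKM with BCT (SD, n = 3 each), a log2 difference of -0.66 that also passed the FDR alone (limma, adjusted p = 6.1e-06). AMH did not pass either (2.72 ± 0.361 and 2.64 ± 0.616 FPKM, limma adjusted p = 0.74).

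Of 18 receptor and co-receptor genes, 11 were tested, with 1 called higher and 2 called lower. TGFBR2, the type II receptor that binds TGF-beta, rose from 0.865, 0.905 and 0.853 FPKM to 4.21, 5.93 and 5.60 FPKM, or by 2.44 ± 0.14 (SE) in log2 terms (limma adjusted p = 1.5e-06). Like the low members, it passed the filter through its BCT samples. ACVR2B, a type II activin receptor, averaged 2.02 ± 0.025 FPKM under DMSO and 0.575 ± 0.091 FPKM under BCT (SD, 3 samples each), with a log2 fold change of -1.66 (limma adjusted p = 2.0e-05), and passed the filter through its DMSO samples. AMHR2, the receptor for AMH, fell from 1.58 to 0.768 FPKM on average, a log2 fold change of -0.97, and also passed the filter through its DMSO samples. It lost its call without BCT replicate 2 (-0.81), with a pseudocount of 1 (-0.55), with equal FPKM sums (-0.27) and with equal sums without MIR6087 (-0.62). The receptor of GDF15 itself was hardly detected: GFRAL was at 0.014, 0.033 and 0 FPKM under DMSO, against 0.041, 0.038 and 0.064 under BCT, and RET stayed between 0.065 and 0.109 FPKM.

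Of 16 genes for antagonists and for proteins that store the ligands, 7 were tested, with 1 called higher and 2 called lower. BAMBI, a pseudoreceptor without a kinase domain, rose from 1.6, 1.57 and 1.77 FPKM to 5.66, 7.13 and 8.08 FPKM, a log2 fold change of 2.0 (limma adjusted p = 2.6e-06). LTBP4, which tethers latent TGF-beta to the matrix, fell from 22.4, 23.7 and 25.1 FPKM to 9.45, 8.38 and 7.71 FPKM, a log2 fold change of -1.47 (limma adjusted p = 1.4e-06) that came to -0.71 and was no longer called with equal FPKM sums. TWSG1, a BMP-binding protein, fell by 0.87 on the log2 scale, close to the threshold, and was not called without BCT replicate 2 (-0.77) or without DMSO replicate 1 (-0.83). Its call was also lost with a pseudocount of 1 (-0.79) and with each other scaling, from -0.85 with quantile normalization and -0.83 with median-ratio size factors to -0.48 with equal sums without MIR6087 and -0.11 with equal FPKM sums. FSTL3, a relative of FST, passed the FDR alone (limma adjusted p = 0.00076) and was not called. It was at 8.44 ± 0.800 FPKM in DMSO and 5.82 ± 0.533 FPKM in BCT (SD, n = 3 each). Its log2 difference was -0.53, against 2.13 for FST. Of the 4 convertase genes, 3 were tested, and PCSK6 alone was called, with a fall of 0.91 on the log2 scale that lost its call without BCT replicate 2 (-0.80) or without DMSO replicate 3 (-0.85), with a pseudocount of 1 (-0.67), with equal FPKM sums (-0.17) and with equal sums without MIR6087 (-0.54). FURIN, at 19.0 FPKM with DMSO and 27.7 FPKM with BCT on average, was not called (log2 difference 0.54). It passed the FDR alone (limma adjusted p = 4.3e-05).

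All 13 genes for SMADs and their regulators were tested, with 1 called higher and 2 called lower. SMAD6 and SMAD7, the inhibitory SMADs that TGF-beta family signaling itself induces, fell by 0.98 and 0.93 on the log2 scale (limma adjusted p = 6.0e-06 and 4.4e-05), from 5.44 to 2.70 and from 13.1 to 6.84 FPKM on average. SMAD7 was not called without BCT replicate 2, at -0.83. Neither gene was called with a pseudocount of 1 (-0.80 and -0.85), with equal FPKM sums (-0.23 and -0.17, limma adjusted p = 0.23 and 0.33) or with equal sums without MIR6087 (-0.61 and -0.55). SKIL, a corepressor of SMADs, averaged 2.89 ± 0.269 FPKM under DMSO and 7.29 ± 1.10 FPKM under BCT (SD, 3 samples each), with a log2 fold change of 1.3 (limma adjusted p = 1.6e-05). The receptor-regulated SMAD1, SMAD2, SMAD3, SMAD5 and SMAD9 and the shared SMAD4 were not called, with log2 differences from -0.18 for SMAD2 to 0.84 for SMAD5. SMAD5, at 14.35 FPKM with DMSO and 25.82 FPKM with BCT on average, was just under the threshold of 0.85. All of these but SMAD9 passed the FDR alone (limma adjusted p from 6.4e-06 for SMAD5 to 0.038 for SMAD2). SMAD2 was lower with BCT, and SMAD1, SMAD3, SMAD4 and SMAD5 were higher.

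Known SMAD target genes did not move one way. Of 8 listed, 7 were tested, with 2 called higher and 1 called lower. CDKN2B, a cell cycle inhibitor induced by TGF-beta, averaged 0.979 FPKM under DMSO and 2.38 FPKM under BCT (log2 fold change 1.20, limma adjusted p = 1.8e-05), passed the filter through its BCT samples and was not called with a pseudocount of 1 (0.77). CTGF, a matricellular protein gene, rose from 10.8, 12.6 and 11.1 FPKM to 29.9, 22.5 and 23.4 FPKM, a log2 fold change of 1.12 (limma adjusted p = 2.4e-05). PMEPA1, which is induced by both TGF-beta and androgen, fell from 73.1, 63.9 and 71.7 FPKM to 31.7, 18.7 and 24.7 FPKM, a log2 fold change of -1.5 (limma adjusted p = 4.4e-05) that came to -0.73 and was no longer called with equal FPKM sums. The BMP targets ID1, ID2, ID3 and ID4 were not called, with log2 differences from -0.25 for ID2 to 0.61 for ID3 at high levels, such as 300.8 ± 6.95 and 346.3 ± 12.6 FPKM for ID1 (SD, n = 3 each). ID1 and ID3, higher with BCT, and ID2, lower, passed the FDR alone (limma adjusted p = 0.0044, 2.0e-05 and 0.0024).

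Over the 82 pathway genes with a row, from ligands to targets, 44 were tested, 5 were called higher and 8 lower. This is 29.5% of them, beside 31.6% of all genes tested, and their median log2 difference was -0.01 beside -0.04. The counts shift with the setting, with 11 to 15 called when single samples were left out and 5 called lower without BCT replicate 2. With equal FPKM sums, 19 were called higher and 1 lower.

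A separate list held 8 transcription factors known to act on the GDF15 gene. Of these, 5 were called higher and 0 lower, all 8 being tested, with a median log2 difference of 1.81, beside 13.9% called higher, 17.8% called lower and a median of -0.04 over all genes tested. EGR1 rose from 7.59, 7.99 and 7.94 FPKM to 115.7, 195.1 and 146.3 FPKM (log2 fold change 4.23, limma adjusted p = 4.1e-07), ATF3 by 3.13 and KLF4 by 2.08 on the log2 scale. ATF4 and its target DDIT3, both of the integrated stress response, rose by 1.70 and 1.92. CEBPB, higher with BCT (log2 difference 0.40), and SP1, lower (-0.52), passed the FDR alone and were not called. These factors were listed with earlier results of these data known, so neither their counts nor their p-values carry weight as evidence about the list. Whether any of them acts on GDF15 here was not tested.

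**Figure D3:**
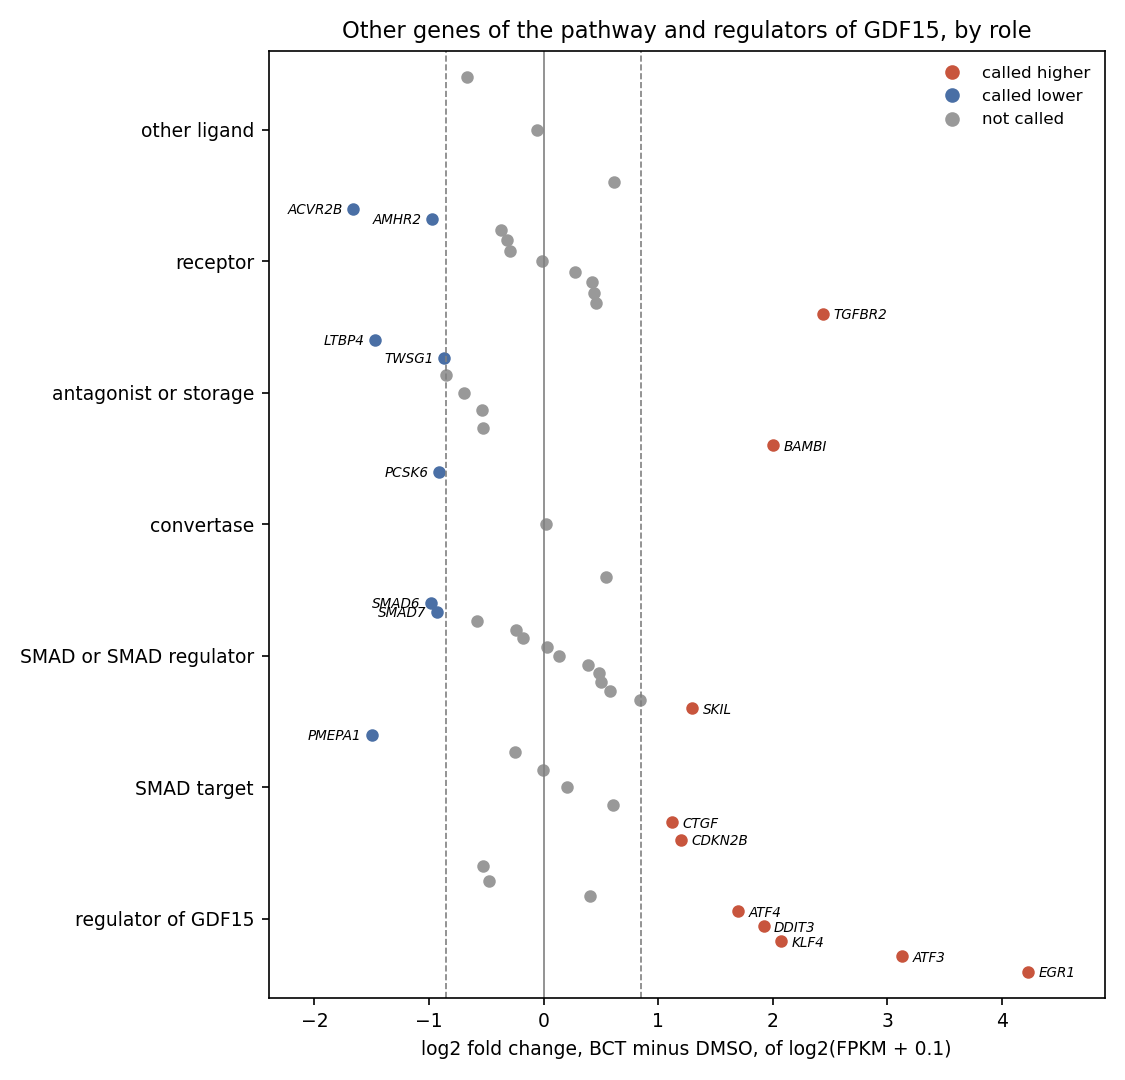
Log2 difference between BCT and DMSO for the tested genes outside the 10 members, 1 point a gene, grouped by role on the vertical axis (the spread within a role only separates the points). Red points were called higher, blue points called lower and grey points not called, dashed lines mark 0.85 in both directions, and EGR1 lies farthest to the right at 4.23.

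The 5 genes whose profile over the 6 samples was nearest to that of GDF15 were LINC00152, DUSP4, C8orf4, EGR2 and MT1H. Nearness was the Euclidean distance between profiles of log2(FPKM + 0.1), each set to 0 at its own DMSO mean, and ran from 0.367 for LINC00152 to 0.720 for MT1H. DUSP4 encodes a phosphatase of MAP kinases, EGR2 an early growth response factor and MT1H a metallothionein, whose close relatives could share its reads. Their log2 differences ran from 4.52 for LINC00152 to 4.93 for C8orf4, while their DMSO means ran from 0.168 FPKM for EGR2 to 3.40 FPKM for DUSP4, below the 31.6 FPKM of GDF15. Since the samples form 2 groups, a near profile says mainly that the difference between groups is of like size. The nearest member was TGFB2, at a distance of 2.79 and in place 61 among the genes tested, followed by INHBA at 4.23 and FST at 4.38.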

How the data were processed

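RNA-seq libraries from 6 samples of 22RV1 cells (3 DMSO, 3 BCT) were used. The authors trimmed reads with Trimmomatic (0.38 in the submitters' processing notes), aligned them to hg19 with HISAT2, used StringTie for quantification, and the values they deposited are FPKM. The notes list HTSeq in place of StringTie, and the gene annotation is not given in the sources used here. Groups and replicate numbers were taken from the sample titles.

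Deposited values were used without rescaling. A gene entered the fit where its average reached 1 FPKM. limma 3.58.1 (R 4.3.3) was run on log2(FPKM + 0.1) with a trended prior, p-values were adjusted by Benjamini-Hochberg, and a gene was called past 0.85 in log2 fold change, in either direction, with an FDR under 0.05. The study's methods give an FDR of 0.01, which was tried as an alternative. A fold change on this scale understates the change of low genes. The fit was tested on simulated data.

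Members and lists were chosen with earlier results of these data known. Named genes are the 10 members, in each role the 3 called genes with the largest change and those needed for small counts, and the 5 profiles nearest to GDF15. TGFB3, GDF11, AMH, GFRAL, RET, FSTL3, FURIN, the SMAD and ID genes that were not called, ATF4, DDIT3, CEBPB and SP1 were named after their values were seen. GDF1 was not analysed here, and a few listed genes are counted but not reported by name. Positions are those of the files on hg19 with 1 added to the start, since that equals a GENCODE transcript start in 7961 of 22422 genes matched, while the start as given does so in 857. Upstream windows come from RefSeq on GRCh38.p14, and no position was moved between builds.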

Additional observations from a re-analysis of the deposited data

How the results depend on the processing

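Rescaling without MIR6087 and a test against the fold change threshold were added after the data were seen. Of 146 values for the 8 tested members, 142 kept their direction and their side of the thresholds. With a pseudocount of 1, BMP4 was at 0.74 and not called, and with the test against the threshold it was at 1.29 and not called, as that test asks for more. Rescaling to equal sums turned INHBB to 0.19 and TGFB1 to 0.13. Of the 10 members, 6 were called under each setting without a sample, and 2 with a filter of 5 FPKM on the mean, where only GDF15 and BMP2 were tested. For the 16 named pathway genes and regulators, 265 values stayed and 32 were weaker, with 0 reversed.

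Over the whole table, 4027 genes were called (1764 higher, 2263 lower), and 3834 to 4420 without single samples. Rescaled to equal sums, 6277 were called (5609 higher, 668 lower, 89.4% higher against 43.8%), and 20 pathway genes in place of 13 (19 higher in place of 5, 1 lower in place of 8). Rescaled without MIR6087, 3369 genes were higher and 1208 lower (73.6% higher), and 12 pathway genes were higher and 3 lower. The test against the threshold called 2425 genes (1033 higher, 1392 lower) and 7 pathway genes (3 lower). The pathway genes that lost their call in it were AMHR2, TWSG1, PCSK6, SMAD6, SMAD7 and CTGF. Higher genes numbered 2657 with no filter, with 8 pathway genes higher, and 1150 with a filter of 5 FPKM on the mean, with 6 pathway genes called (2 higher, 4 lower). A pseudocount of 1 gave 7 pathway genes (3 lower). Without single samples, 5 to 9 pathway genes were called lower, the fewest without BCT replicate 2. Which scaling is right was not tested.

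The replicate numbers are shared by both groups, but only 1 of 3 same-numbered pairs had deviations that correlated above 0.1 (0.116, 0.033 and 0.034), so the numbers were not taken as pairing. With the replicate block, 4033 genes were called (1767 higher, 2266 lower), and no call of a member changed. The depth behind single values is unknown, which limits most what can be said of BMP7, INHBE and GFRAL.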
